A study of Mus musculus with 10 samples.

Results

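The genes described here are the 36 listed genes of glucose uptake, glycolysis and glycogen metabolism, taken by symbol from the 25239 gene symbols of the RNA sequencing tables. All 36 symbols were found, and all 36 passed the minimum mean of 10 normalized reads used for testing. They were measured in cardiomyocytes, the contractile muscle cells of the heart, from wild-type mice. Atrial cardiomyocytes (aCM) came from the atrium and ventricular cardiomyocytes (vCM) from the ventricle, with 5 libraries each, and the labels give no treatment, age, strain or method of cell isolation. The study profiled the atrial against the ventricular cells.

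Glucose enters the cardiomyocyte through GLUT4, which insulin and contraction move to the surface, and through GLUT1, which resides there. Hexokinase traps it as glucose phosphate, glycolysis splits it into pyruvate with a small yield of ATP, and lactate dehydrogenase interconverts pyruvate and lactate. The adult heart draws most of its energy from fatty acids and keeps glycogen, a branched glucose store that glycogen synthase builds and glycogen phosphorylase breaks down. Many steps are run by paired isozymes, one of them typical of muscle.

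Library depth differed between replicates. Replicates 1 and 2 of both chambers held 1790402 to 4445287 reads, of which the ribosomal RNA precursor Rn45s took 0.215% to 0.480%. Replicates 3 to 5 held 11163805 to 12842635 reads, of which Rn45s took 23.1% to 29.8%. The division runs across both chambers, so chamber differences are also given within the first library set (replicates 1 and 2, 2 against 2 libraries) and the second (replicates 3 to 5, 3 against 3). The 36 genes together took 0.802% to 0.897% of aCM reads and 0.929% to 1.23% of vCM reads, leaving out Rn45s and Lars2, a symbol that collects ribosomal RNA reads. The 5 atrial markers (Myl7, Myl4, Sln, Nppa and Bmp10) were all higher in aCM, and the 5 ventricular markers (Myl2, Myl3, Irx4, Hey2 and Pln) all lower. None of 5 general cardiomyocyte markers passed the test, while with the replicate number as a block Tnnt2 and Actn2 were lower in aCM.

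Markers of other heart cells also moved with the chamber. Of 8 endothelial and endocardial markers 3 were higher in aCM, with summed levels of 1202 to 4332 normalized reads in aCM and 275 to 1495 in vCM. Of 6 epicardial markers 5 were higher in aCM (2483 to 6008 normalized reads in aCM and 381 to 2432 in vCM). Of 6 smooth muscle and pericyte markers 2 were lower in aCM (1647 to 6469 normalized reads in aCM and 8964 to 15443 in vCM), and of 8 fibroblast markers 2 were lower (21312 to 36361 normalized reads in aCM and 9165 to 63473.5 in vCM). Their part in the differences below was not tested. In bulk RNA, fewer cells of a type and less RNA per cell cannot be told apart.

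Of the 36 genes, 9 were lower in aCM, 2 were higher and 25 passed no test (limma on log2(normalized reads + 1), Benjamini-Hochberg adjusted p under 0.05 over 12422 genes). The 9 lower genes are 25% of the 36, where 6.56% of all tested genes were lower, and the 2 higher genes are 5.56%, where 8.12% were higher. Lower in aCM were Hk2, Tpi1, Pgk1, Eno3, Ldha and Ldhb of glycolysis and Gys1, Ugp2 and Pygm of glycogen metabolism. Higher were Phkg1 and Ppp1r3c, both regulators of glycogen enzymes. The median log2 difference, aCM minus vCM, was -0.30 over the 36 genes and -0.01 over all tested genes. Below 0 were 26 of the 36 differences and 51.3% of those of all tested genes. The replicate numbers were taken as pairing the libraries, though within replicates 3 to 5 the correlations did not single out equal numbers. With the number as a block 17 genes were lower (16% of all tested genes) and 4 higher (16.3%). edgeR on the recovered reads called 9 lower (7.37% of all genes) and 2 higher (8.83%), and DESeq2 10 lower (9.81%) and 3 higher (10.9%). With the library set as a term, 18 were lower (15.8%) and 4 higher (16%). When each library was scaled to an equal total instead, 4 were lower (4.32% of all genes) and 2 higher (8.17%), and Tpi1, Pgk1, Ldhb, Pygm and Ugp2 were not called. This scaling turned the split over all tested genes to 539 lower and 1018 higher, against 815 lower and 1009 higher. At equal totals without Rn45s and Lars2, 7 were lower (5.07% of all genes) and 3 higher (8.41%), and Gys1 and Ugp2 were not called.

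**Figure D1:**
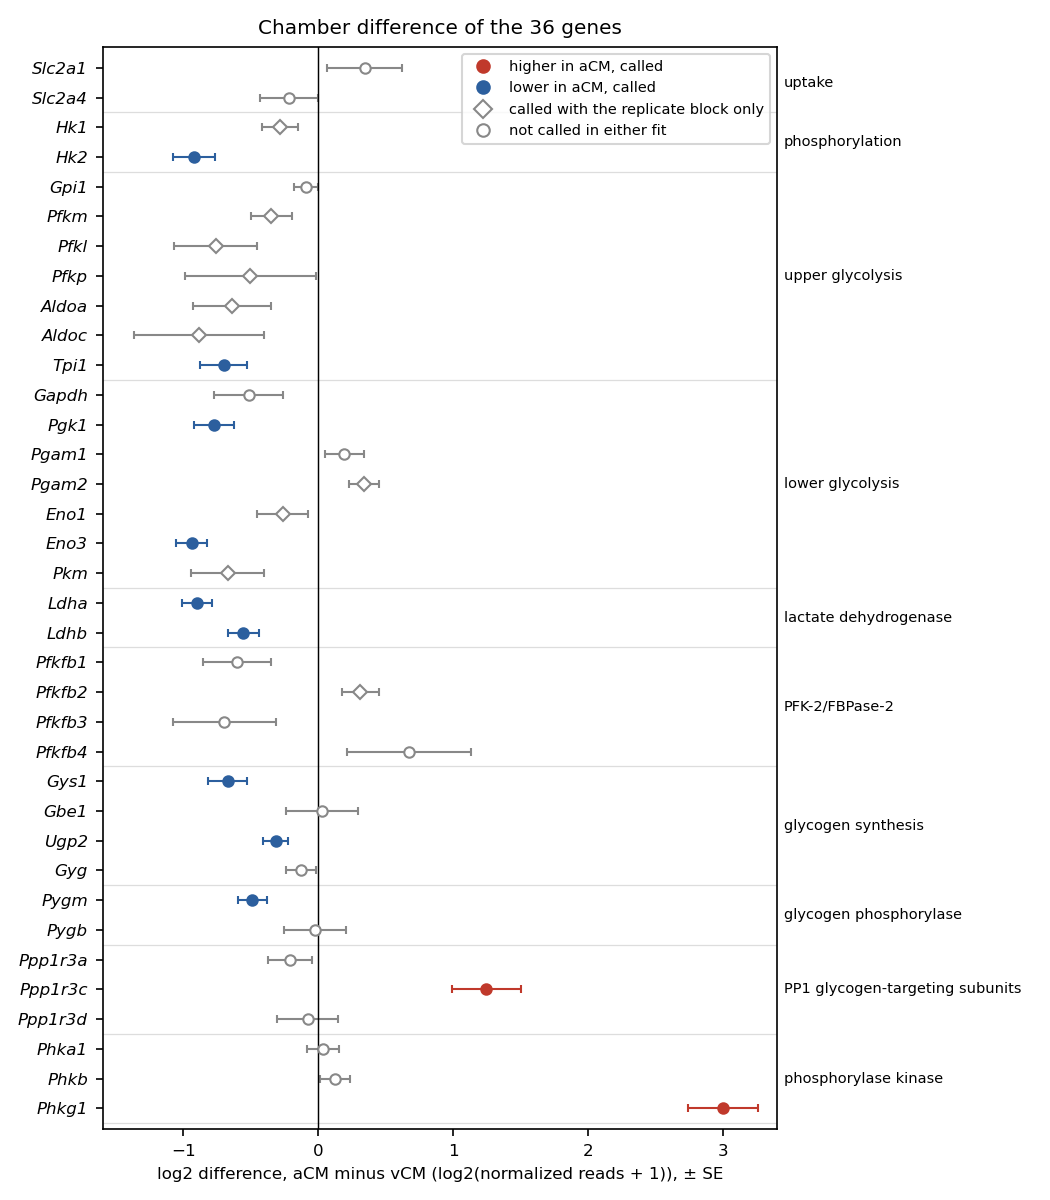
Log2 difference, aCM minus vCM, of each of the 36 genes with its SE, on the log2(normalized reads + 1) scale, ordered by role. Filled blue points are the 9 genes called lower in aCM, filled red points the 2 called higher, diamonds the 10 called only with the replicate block, and open circles the rest. Phkg1 stands at 2.999 and Ppp1r3c at 1.24, to the right of all other genes.

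Per kilobase of exon, the highest of the 36 genes were Pgam2, Aldoa, Eno3, Ldhb and Pkm, all glycolytic. Pgam2 stood at 5091 ± 306 normalized reads per kb in aCM and 4053 ± 514 in vCM, and Eno3 at 1871 ± 130.5 in aCM and 3605 ± 432 in vCM (SD, n = 5 each). Pfkfb4, a regulator of phosphofructokinase, was lowest, averaging 3.71 per kb over both chambers. Positions are those of GENCODE release M21 on GRCm38, as whole genes with their introns.

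Start-site sequences are shown for 3 genes lower in aCM (Pgk1, Ldha and Eno3) and for both genes higher, so that the letters of the first can be set against those of the second. Each is a RefSeq window on GRCm38.p6 that runs from 250 bases before to 50 after the start, 5′ to 3′ on the gene's strand. Capitals mark ACGTG on either strand, the core that hypoxia-inducible factors and some E-box factors bind. Pgk1 and Ldha are textbook targets of hypoxia-inducible factors.
Pgk1, chrX:106186850-106187149, plus strand: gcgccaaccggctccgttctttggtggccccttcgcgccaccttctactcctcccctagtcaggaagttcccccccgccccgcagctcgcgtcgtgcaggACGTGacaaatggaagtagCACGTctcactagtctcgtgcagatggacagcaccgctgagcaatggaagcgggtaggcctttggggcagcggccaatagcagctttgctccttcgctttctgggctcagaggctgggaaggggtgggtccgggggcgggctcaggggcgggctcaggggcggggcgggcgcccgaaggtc
Ldha, chr7:46845554-46845853, plus strand: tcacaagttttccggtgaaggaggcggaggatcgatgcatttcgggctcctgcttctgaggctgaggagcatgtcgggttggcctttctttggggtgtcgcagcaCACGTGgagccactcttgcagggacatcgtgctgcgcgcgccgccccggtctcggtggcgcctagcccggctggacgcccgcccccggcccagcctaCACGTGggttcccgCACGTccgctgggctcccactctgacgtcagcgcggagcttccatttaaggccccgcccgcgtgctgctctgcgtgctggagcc
Eno3, chr11:70656926-70657225, plus strand: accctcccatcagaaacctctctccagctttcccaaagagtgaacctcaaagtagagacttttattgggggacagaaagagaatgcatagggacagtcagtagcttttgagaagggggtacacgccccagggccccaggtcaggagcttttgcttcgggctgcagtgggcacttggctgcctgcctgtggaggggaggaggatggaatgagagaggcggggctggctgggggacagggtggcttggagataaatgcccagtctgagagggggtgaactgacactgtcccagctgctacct
Ppp1r3c, chr19:36736555-36736854, minus strand: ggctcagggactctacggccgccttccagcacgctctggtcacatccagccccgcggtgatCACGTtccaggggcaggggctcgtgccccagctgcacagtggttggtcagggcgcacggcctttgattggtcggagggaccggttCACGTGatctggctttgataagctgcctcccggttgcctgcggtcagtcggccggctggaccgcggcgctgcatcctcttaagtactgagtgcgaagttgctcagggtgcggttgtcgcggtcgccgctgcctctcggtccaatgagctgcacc
Phkg1, chr5:129879039-129879338, minus strand: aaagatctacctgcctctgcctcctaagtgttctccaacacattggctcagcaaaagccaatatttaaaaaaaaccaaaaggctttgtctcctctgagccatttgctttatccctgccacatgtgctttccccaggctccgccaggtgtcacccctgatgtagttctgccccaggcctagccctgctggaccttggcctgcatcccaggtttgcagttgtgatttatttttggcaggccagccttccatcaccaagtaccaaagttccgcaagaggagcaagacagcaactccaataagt
RefSeq lists 2 start windows for Ldha, of which the first is shown, and 1 for each of the others. The Ldha start shown lies 4329 bases inside its GENCODE gene, and the Phkg1 start also lies inside its longer GENCODE gene. The first Ldha window held 5 matches, Ppp1r3c 3 and Pgk1 2, where CACGTG reads the same on both strands and counts as 2. The Eno3 window, the Phkg1 window and the second Ldha window held none.

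Windows were found for 35 of the 36 genes, all but Slc2a4. ACGTG occurred in at least 1 window of 19 of these 35 genes (54.3%), against 21.8% of 27025 genes with a window. Counted by window, ACGTG occurred in 43.4% of the 53 windows of these genes and in 19.6% of all 32851. The windows were not matched for GC content. By call, ACGTG occurred in 5 of the 9 genes lower in aCM, 1 of the 2 higher and 13 of the 24 not called (54.2%). CACGTG, which contains ACGTG, occurred in 7 of the 35 genes (20%) and in 8.09% of all genes. AAGGTCA, the core site of estrogen-related receptors, occurred in 3 of the 35 and in 5.38% of all genes. These are matches of letters in windows of 300 bases on both strands, and no binding was measured.

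Neither glucose transporter passed the test. Slc2a4 encodes GLUT4 (ENSMUSG00000018566, chr11:69942539-69948188, minus strand). It had 901, 747, 508, 591 and 626 normalized reads in aCM replicates 1 to 5, against 1225, 834, 671, 603 and 649.9 in vCM. The aCM library was the lower one at every number, while the groups overlapped, and the log2 difference was -0.22 ± 0.22 (limma adjusted p = 0.629, 0.0809 with the block).

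Slc2a1, which encodes GLUT1, had 425, 269, 178, 188 and 165 normalized reads in aCM and 294, 166, 163, 144 and 167 in vCM. Replicate 1 was highest in both chambers, and the log2 difference was 0.34 ± 0.28 (adjusted p = 0.528 by limma). The same 2 libraries were highest in the endothelial markers Pecam1 (626 in aCM and 329 in vCM) and Cdh5 (419 in aCM and 277 in vCM). They were also highest in Kdr, Tie1, Vwf and Emcn, while Tek and Npr3 were highest in replicate 1 of aCM only.

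The ratio of the transporters passed a test that neither gene did. The log2 ratio Slc2a1/Slc2a4 was -1.08, -1.47, -1.51, -1.65 and -1.92 in aCM and -2.05, -2.32, -2.04, -2.06 and -1.95 in vCM. Every aCM library stood above every vCM library, a difference of 0.56 (exact two-sided permutation test over all labelings of 5 against 5, p = 0.00794, the smallest the labelings allow, and adjusted p = 0.0185 over 14 isozyme ratios). Per kb, GLUT1 transcripts made up 23.1% ± 3.79 of the pair in aCM and 16.8% ± 1.32 in vCM (SD, n = 5 each). With labels permuted within library sets 7 of the 14 ratios passed (adjusted p = 0.0333 each), and with signs flipped within the 5 pairs the smallest possible p is 0.0625, so that no ratio can pass. The difference of this ratio was 0.91 within the first library set and 0.32 within the second. In replicates 3 to 5 Pecam1 was at 3.86 to 5.11 normalized reads in aCM and 9.91 to 14.7 in vCM, and Cdh5 was also lower in aCM. Other endothelial markers went the other way in these libraries. Kdr was at 318 to 375 in aCM and 55.8 to 89.6 in vCM. Tek was at 495 to 530 in aCM and 314 to 379 in vCM, and Npr3 at 879 to 924 in aCM and 266 to 347 in vCM. Tie1, Vwf and Emcn were low in both chambers. The whole endothelial list was described above, and its part in this ratio was not tested.

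Hexokinase phosphorylates glucose. Hk2, the insulin-responsive muscle isozyme (ENSMUSG00000000628, chr6:82725025-82774454, minus strand), had 335, 255, 354, 402 and 401 normalized reads in aCM and 661, 502, 736, 685 and 720.3 in vCM. All 5 aCM libraries lay below all 5 vCM libraries, and Hk2 was 47.1% lower in aCM (log2 difference -0.92 ± 0.16, limma adjusted p = 0.00233). Its difference was -0.98 within the first library set and -0.89 within the second. Across the 36 genes, 10 had all aCM libraries below all vCM libraries, as 6.55% of tested genes did, and 1 had them all above, as 7.84% did. Taken number by number, 19 of the 36 were lower in aCM at all 5 replicate numbers (20.7% of tested genes) and 5 were higher at all 5 (20.2%).

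Hk1, the widely expressed isozyme, had 1508, 1301, 1868, 1798 and 1973 normalized reads in aCM and 1944, 1904, 2270.4, 1904 and 2173 in vCM. It was the lower in aCM at all 5 numbers, with a log2 difference of -0.28 ± 0.13 (adjusted p = 0.205 by limma and 0.0267 with the block). The ratio Hk1/Hk2 was higher in aCM in every library, at 2.27 ± 0.11 in aCM and 1.63 ± 0.17 in vCM on the log2 scale (exact permutation p = 0.00794, adjusted p = 0.0185). Hk2 made up 15.2% ± 0.953 of hexokinase transcripts per kb in aCM and 21.8% ± 1.95 in vCM.

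**Figure D2:**
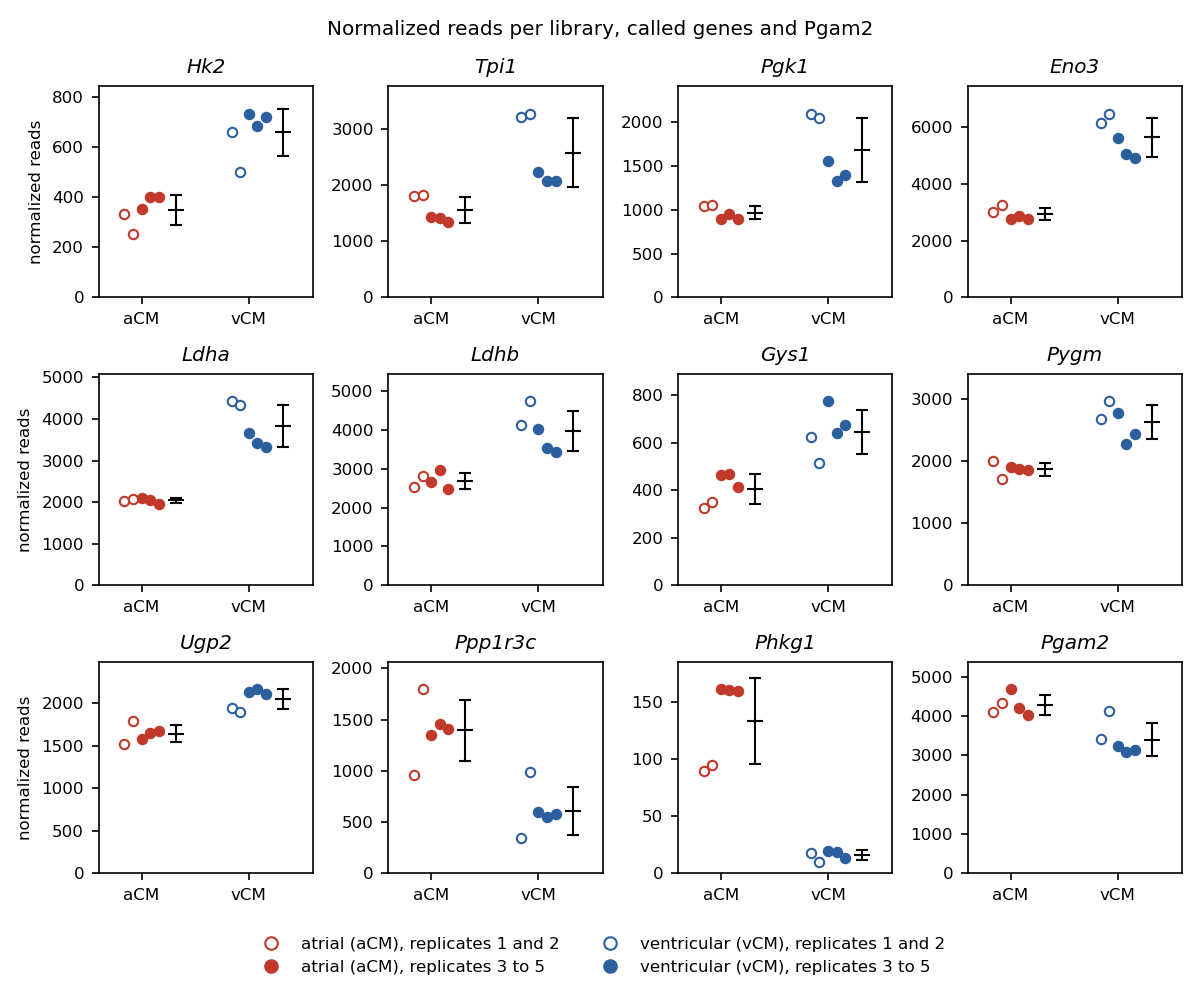
Normalized reads in each library, aCM left and vCM right, for the 11 called genes and Pgam2, on linear axes from 0. Open points are replicates 1 and 2, filled points replicates 3 to 5, and the black mark and bar are the mean and SD of 5 libraries. The groups separate in all panels but Ppp1r3c and Pgam2.

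In upper glycolysis, from glucose phosphate to triose phosphates, 1 of 7 genes passed the test, where 6.56% of all tested genes were lower and 8.12% higher. Tpi1, triosephosphate isomerase, had 1796, 1815, 1429, 1410.4 and 1332 normalized reads in aCM and 3204, 3266, 2231, 2071 and 2066 in vCM. The groups did not overlap and Tpi1 was 39.4% lower in aCM (log2 difference -0.70 ± 0.17, limma adjusted p = 0.0184). For Tpi1 the difference was -0.84 within the first library set and -0.61 within the second. Leaving out aCM replicate 3, 4 or 5 took the adjusted p above 0.05, at most to 0.0530.

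Aldolase and some phosphofructokinase genes varied strongly between replicates. Aldoa, the muscle aldolase, had 7277, 7057, 4239, 4096 and 3966 normalized reads in aCM and 12487, 12048, 6499.7, 5902 and 5677 in vCM. In both chambers replicates 1 and 2 stood well above replicates 3 to 5, while at each number aCM was the lower. The log2 difference of -0.64 ± 0.29 had an adjusted p of 0.19 by limma without the block and 0.000207 with it. Pfkp, the platelet-type phosphofructokinase, averaged 2.81 times as high in replicates 1 and 2 as in replicates 3 to 5 in aCM, and 3.21 times as high in vCM. Its chamber difference was -0.50 ± 0.48 (adjusted p = 0.612, 0.00102 with the block, limma). Pfkl, Aldoc, Pkm and Gbe1 also stood over 1.5 times higher in replicates 1 and 2 in both chambers.

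Pfkm, the muscle phosphofructokinase, had 1492, 1205, 1975, 1939.9 and 1912 normalized reads in aCM and 2128, 2079, 2417, 1989 and 2070.1 in vCM. The groups did not overlap, narrowly, and the difference of -0.35 ± 0.15 had an adjusted p of 0.167 by limma (0.0413 with the block). The liver-type Pfkl (adjusted p with the block 0.000565) and the brain-type aldolase Aldoc (0.00707, limma) were also called lower only with the block. The isomerase Gpi1 averaged 2619.9 ± 96.3 normalized reads in aCM and 2798 ± 171 in vCM and was called in neither fit (adjusted p = 0.615 by limma). Of the Gpi1 transcripts, 24.5% of windows of 50 bases also occur in transcripts of other genes. The ratios Pfkl/Pfkm, Pfkp/Pfkm and Aldoc/Aldoa passed no test, with differences of -0.41, -0.16 and -0.24 (exact permutation adjusted p = 0.515, 0.563 and 0.528).

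In lower glycolysis, from triose phosphate to pyruvate, 2 of 7 genes were lower in aCM, as were 6.56% of all tested genes. Eno3, the muscle enolase (ENSMUSG00000060600, chr11:70657202-70662513, plus strand), had 3011, 3246, 2769.8, 2874 and 2751 normalized reads in aCM and 6152, 6483, 5614, 5048 and 4927 in vCM. The highest aCM library was well under the lowest vCM library, and Eno3 was 48.1% lower in aCM (log2 difference -0.94 ± 0.11, limma adjusted p = 0.000287). The Eno3 difference came to -1.01 within the first library set and -0.89 within the second.

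Eno1, the enolase of most tissues, had 866, 851, 592, 541 and 559 normalized reads in aCM and 906, 1085, 714, 656 and 717 in vCM. These groups overlapped, and the difference was -0.26 ± 0.19 (adjusted p = 0.453 by limma, 0.0189 with the block). The ratio Eno1/Eno3 was higher in every aCM library than in any vCM library, by 0.68 (exact permutation p = 0.00794, adjusted p = 0.0185). Eno1 made up 12.4% ± 1.97 of enolase transcripts per kb in aCM and 8.10% ± 0.832 in vCM. Of the Eno1 transcripts, 49.5% of windows of 50 bases also occur in transcripts of other genes, so reads could be split among copies. The copy Eno1b is listed at 4.14 to 22.4 normalized reads in aCM and 3.46 to 34.1 in vCM.

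Pgk1, phosphoglycerate kinase (ENSMUSG00000062070, chrX:106187100-106203699, plus strand), had 1043, 1054, 897, 949.9 and 896 normalized reads in aCM and 2100.1, 2045, 1553, 1324 and 1394 in vCM. It was 42.5% lower in aCM with no overlap (log2 difference -0.77 ± 0.15, limma adjusted p = 0.00497). The Pgk1 difference was -0.98 within the first library set and -0.64 within the second. Its transcripts share 68.0% of such windows with 5 other genes, so its level is uncertain.

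For phosphoglycerate mutase both differences lay above 0. Pgam2, the muscle form, had 4114, 4341, 4684, 4218 and 4024 normalized reads in aCM and 3415, 4144, 3246, 3093 and 3126 in vCM. It was 1.26 times as high in aCM and the higher at all 5 numbers, but vCM replicate 2 stood above 2 of the aCM libraries. Its log2 difference of 0.34 ± 0.11 had an adjusted p of 0.07 by limma, 0.0115 with the block and 0.0233 without vCM replicate 2. Pgam1, the form of most tissues, averaged 151 ± 18.9 in aCM and 133 ± 22.4 in vCM (adjusted p = 0.483), and the ratio Pgam1/Pgam2 passed no test (exact permutation adjusted p = 0.321). Pgam1 transcripts share 41.5% of windows of 50 bases with 4 other genes, so its level and this ratio are uncertain.

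Pkm, pyruvate kinase, had 5033, 4942, 2964, 3211 and 2949 normalized reads in aCM and 8788, 8899, 4924, 4338 and 4292 in vCM. Like Aldoa it was higher in replicates 1 and 2, and lower in aCM at every number, with a log2 difference of -0.67 ± 0.27 (adjusted p = 0.137 by limma, 0.000345 with the block). The gene table does not part its M1 and M2 splice forms, and Pkm transcripts share 23.7% of windows of 50 bases with 8 other genes. Gapdh, glyceraldehyde-3-phosphate dehydrogenase, ranked 29 of 36 per kb, at 62.2 ± 14.2 normalized reads in aCM and 90.9 ± 25.2 in vCM. Its transcripts share 58.4% of windows of 50 bases with transcripts of 222 other genes, so its level is uncertain. Its difference of -0.52 ± 0.26 was not called (adjusted p = 0.235 by limma, and 0.0310 without vCM replicate 1).

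Both lactate dehydrogenase subunits were lower in aCM. Ldha, the muscle-type subunit (ENSMUSG00000063229, chr7:46841475-46855627, plus strand), had 2023, 2079.96, 2094, 2055 and 1948 normalized reads in aCM and 4422, 4334, 3669.7, 3426 and 3319 in vCM. The aCM libraries lay close together, all below every vCM library, and Ldha was 46.8% lower (log2 difference -0.90 ± 0.11, limma adjusted p = 0.000334). Ldhb, the heart-type subunit, had 2531, 2819.8, 2654, 2972 and 2474 normalized reads in aCM and 4124, 4733, 4025, 3541 and 3435 in vCM. It was 32.3% lower, also without overlap (log2 difference -0.56 ± 0.12, limma adjusted p = 0.00813). The Ldha difference was -1.09 within the first library set and -0.77 within the second, and that of Ldhb was -0.73 within the first library set and -0.44 within the second. Ldhb transcripts share 20.99% of windows of 50 bases with 1 other gene, and Ldha transcripts share 10.40% with 14 other genes, which limits both levels.

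The subunit balance differed too. The log2 ratio Ldha/Ldhb was -0.32, -0.44, -0.34, -0.53 and -0.35 in aCM and 0.10, -0.13, -0.13, -0.05 and -0.05 in vCM. No aCM library reached the lowest vCM library, a difference of -0.34 (exact permutation p = 0.00794, adjusted p = 0.0185). Per kb, Ldha made up 34.3% ± 1.37 of lactate dehydrogenase transcripts in aCM and 39.9% ± 1.57 in vCM, and Ldhb was the larger share in every library. The windows shared with other genes, given above, limit this ratio and these shares.

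Taken as 1 class, 6 of the 18 genes of glycolytic enzymes and lactate dehydrogenase were lower in aCM and none higher, where 6.56% of all tested genes were lower and 8.12% higher. With the replicate block 14 were lower and 1, Pgam2, higher, where 16% of all tested genes were lower and 16.3% higher. Summed per kb over isozymes, enolase stood at 2139 ± 188 normalized reads per kb in aCM and 3925 ± 497 in vCM, a ratio of 0.545. Phosphoglycerate mutase stood at 5176 ± 304 in aCM and 4128 ± 526 in vCM, a ratio of 1.25. The ratio was 0.575 at phosphoglycerate kinase, 0.619 at lactate dehydrogenase, 0.763 at hexokinase and 0.936 at glucose-6-phosphate isomerase. Phosphoglycerate mutase was the one glycolytic step whose sum was higher in aCM at all 5 numbers.

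**Figure D3:**
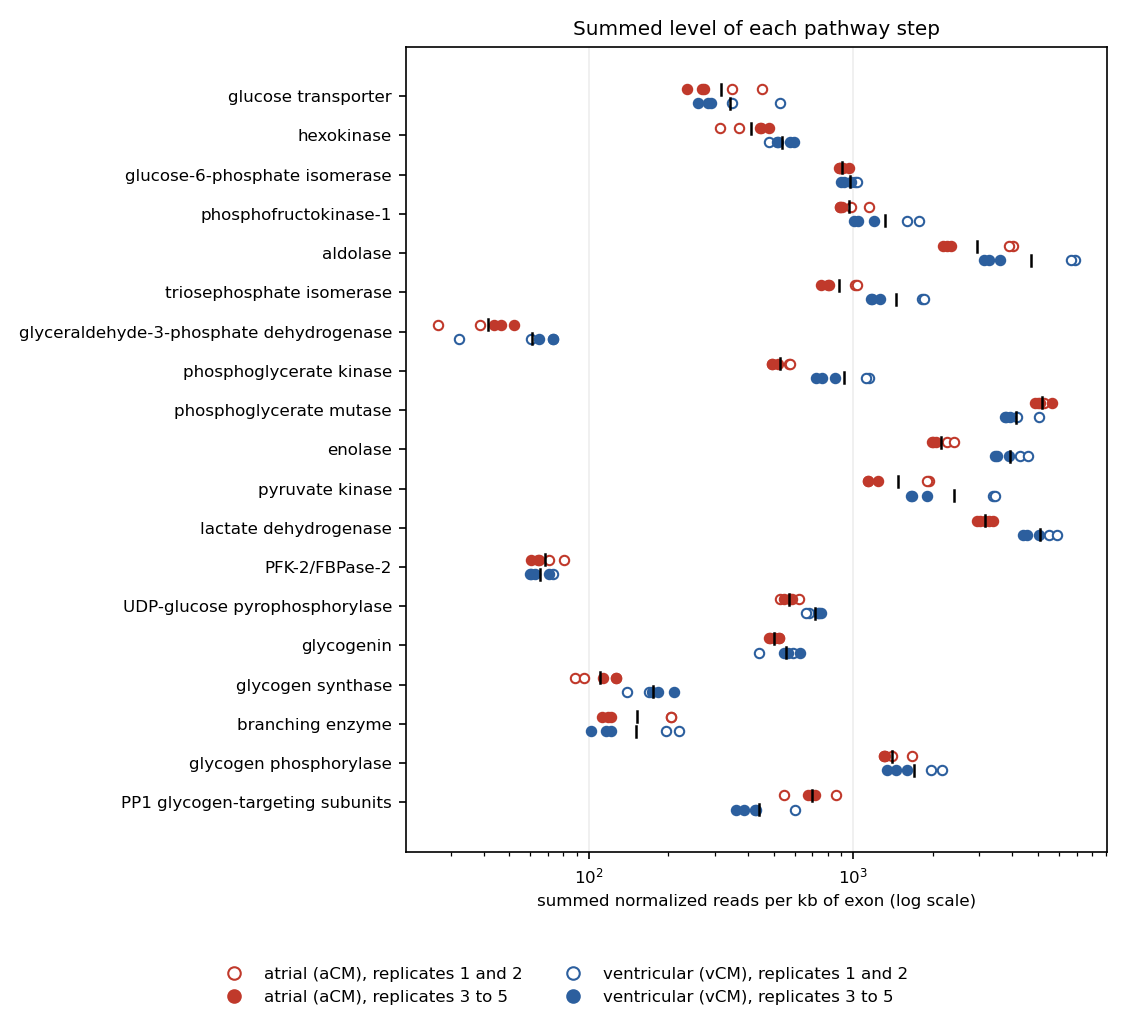
Summed normalized reads per kb of exon for each step, on a log axis, with aCM above vCM in each row. Points are libraries (open for replicates 1 and 2, filled for replicates 3 to 5) and black lines are means of 5 libraries. The enolase sum averaged 2139 in aCM and 3925 in vCM, and the sum of the PP1 glycogen-targeting subunits 698 in aCM and 440.2 in vCM.

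The 4 Pfkfb genes encode PFK-2/FBPase-2, which makes and removes the sugar phosphate that activates phosphofructokinase. None passed the test. Pfkfb2, the heart isozyme, had 249.6, 322, 239, 227 and 245 normalized reads in aCM and 204, 253, 215, 181 and 180.4 in vCM. It was higher in aCM at all 5 numbers with overlapping groups (log2 difference 0.31 ± 0.14, limma adjusted p = 0.177, 0.0162 with the block). Pfkfb1, the liver and muscle isozyme, had 19.3, 10.1, 13.1, 11.2 and 14.2 in aCM and 20.8, 26.8, 22.9, 18.7 and 15.4 in vCM. These are low levels, and its difference was -0.60 ± 0.25 (adjusted p = 0.156 by limma).

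The ratio Pfkfb1/Pfkfb2 was lower in every aCM library, at -4.17 ± 0.45 in aCM and -3.26 ± 0.12 in vCM on the log2 scale (exact permutation p = 0.00794, adjusted p = 0.0185). Pfkfb2 made up 74.7% ± 3.52 of the family per kb in aCM and 62.8% ± 5.09 in vCM. Its transcripts share 25.0% of windows of 50 bases with 2 other genes, which limits this ratio and share. Pfkfb3, the inducible isozyme, had 38.6, 23.0, 43.2, 30.1 and 32.2 in aCM and 45.0, 19.5, 72.5, 87.5 and 78.5 in vCM, with a log2 difference of 0.01 within the first library set and -1.17 within the second. It was not called over all libraries by limma (adjusted p = 0.294) but was called lower by DESeq2 (adjusted p = 0.0494), and by limma without vCM replicate 2 (adjusted p = 0.0196). Pfkfb4 averaged 15.4 ± 5.87 in aCM and 10.5 ± 7.23 in vCM (adjusted p = 0.424, limma), near the level that 3 reads are worth in the shallowest library, 10.4.

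**Figure D4:**
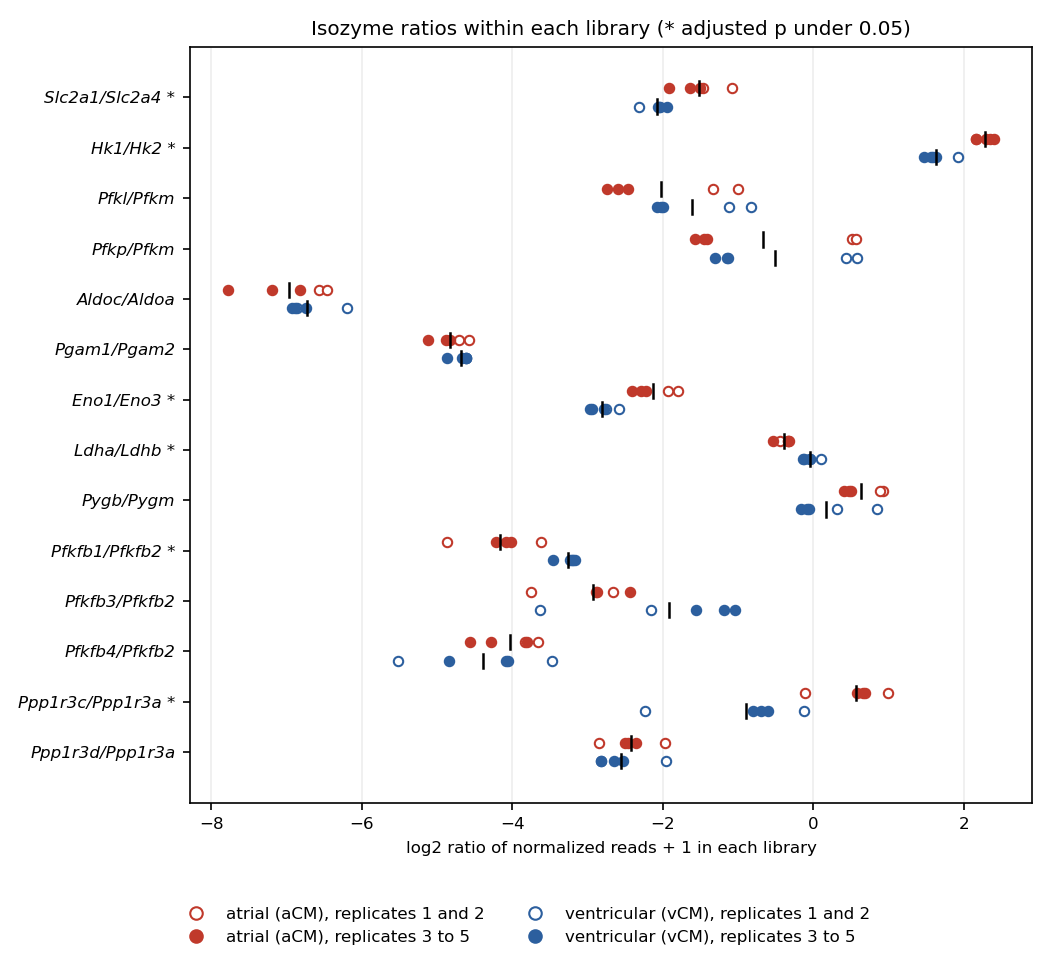
Log2 ratio of normalized reads (+ 1) of 2 isozymes in each library, with aCM above vCM in each row and a star at the 6 ratios with an adjusted p under 0.05. Open points are replicates 1 and 2, filled points replicates 3 to 5, black lines means. The groups separate at the 6 starred ratios, narrowly at Slc2a1/Slc2a4 and Ppp1r3c/Ppp1r3a. Pfkp/Pfkm divides by library set, and by chamber only within replicates 3 to 5, where aCM lies below vCM.

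Of the 12 glycogen genes, 3 were lower and 2 higher in aCM, where 6.56% of all tested genes were lower and 8.12% higher. Their median log2 difference was -0.05. With the block the counts were again 3 lower and 2 higher, where 16% of all tested genes were lower and 16.3% higher. Gys1, muscle glycogen synthase (ENSMUSG00000003865, chr7:45434844-45456619, plus strand), had 326, 351, 464, 468 and 414 normalized reads in aCM and 623, 514, 773, 639 and 673 in vCM. The groups did not overlap and Gys1 was 37.2% lower in aCM (log2 difference -0.67 ± 0.15, limma adjusted p = 0.00943). Its difference was -0.74 within the first library set and -0.63 within the second. Gys1 overlaps Ruvbl2 on the opposite strand, which stood at 0.790 of its vCM level in aCM without overlap, and was called lower only with the block (limma adjusted p = 0.0855, 0.0171 with the block).

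Ugp2 makes UDP-glucose, the donor for glycogen. It had 1519.9, 1794, 1576, 1657 and 1681 normalized reads in aCM and 1944, 1899, 2132, 2166 and 2106 in vCM, without overlap and 19.7% lower (log2 difference -0.32 ± 0.09, limma adjusted p = 0.0434). Its difference was -0.22 within the first library set and -0.38 within the second. Of the 11 called genes Ugp2 was nearest the threshold, and its call was lost in 7 of 10 fits without a single library (aCM replicate 1, 3, 4 or 5 or vCM replicate 3, 4 or 5), with an adjusted p of up to 0.110. It was also lost with no minimum mean (0.116) and without both replicates 1 (0.0542, limma). Glycogenin, Gyg, which primes the chain, averaged 968 ± 39.9 in aCM and 1066 ± 136 in vCM (adjusted p = 0.55). The branching enzyme Gbe1 averaged 649.9 ± 204 in aCM and 644 ± 225 in vCM (adjusted p = 0.972, limma).

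Glycogen phosphorylase releases glucose phosphate from the store. Pygm, its muscle form, had 2003, 1704, 1898, 1864 and 1852 normalized reads in aCM and 2681, 2957, 2775, 2271 and 2436 in vCM. It was 29.0% lower in aCM without overlap (log2 difference -0.49 ± 0.10, limma adjusted p = 0.00887), and the difference was -0.61 within the first library set and -0.41 within the second. Pygb, the brain form, had 3794, 3135, 2522, 2590.2 and 2623 in aCM and 4819.6, 3676, 2474, 2148 and 2335 in vCM, with a difference of -0.02 ± 0.23 (adjusted p = 0.973) whose sign changed with the libraries used. The ratio Pygb/Pygm was higher in aCM at all 5 numbers, by 0.47, with overlapping groups (exact permutation p = 0.0556, adjusted p = 0.111). It passed with labels permuted within library sets (exact permutation adjusted p = 0.0333) and without vCM replicate 1 (0.0278).

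Protein phosphatase 1 activates glycogen synthase once a targeting subunit brings it to glycogen. Ppp1r3c, the widely expressed targeting subunit (ENSMUSG00000067279, chr19:36731731-36736653, minus strand), had 963, 1795, 1353, 1459 and 1403 normalized reads in aCM and 343, 987, 599, 547 and 576 in vCM. At each number aCM was higher, while the lowest aCM library fell just under the highest vCM library. Ppp1r3c was 2.28 times as high in aCM (log2 difference 1.24 ± 0.26, limma adjusted p = 0.00731), and the difference was 1.18 within the first library set and 1.29 within the second.

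Ppp1r3a, the striated muscle subunit, had 1044, 899.6, 909, 906 and 886 normalized reads in aCM and 1623, 1077, 1045, 833 and 932 in vCM, and was not called (log2 difference -0.21 ± 0.16, limma adjusted p = 0.503). The ratio Ppp1r3c/Ppp1r3a was higher in aCM in every library, by 1.45 (exact permutation p = 0.00794, adjusted p = 0.0185). Per kb, Ppp1r3c made up 72.8% ± 4.73 of the 3 subunits in aCM and 50.4% ± 12.2 in vCM. Ppp1r3d averaged 174 ± 33.0 in aCM and 189 ± 62.8 in vCM (adjusted p = 0.898, limma).

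Phosphorylase kinase switches glycogen phosphorylase on, and its catalytic subunit in muscle is encoded by Phkg1 (ENSMUSG00000025537, chr5:129863421-129898549, minus strand). Phkg1 had 89.7, 95.0, 161, 161 and 160.3 normalized reads in aCM and 17.3, 9.75, 19.8, 18.7 and 13.0 in vCM. Every aCM library stood far above every vCM library, and within aCM replicates 1 and 2 were lower than replicates 3 to 5. The fewest Phkg1 reads in a library were 4. Phkg1 was 8.49 times as high in aCM (log2 difference 2.999 ± 0.26, limma adjusted p = 2.73e-05), with a difference of 2.73 within the first library set and 3.18 within the second.

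Phkg1 ranked 32 of 36 per kb, at 56.2 ± 15.8 normalized reads per kb in aCM and 6.62 ± 1.78 in vCM. Neither regulatory subunit among the 36 genes passed the test. Phka1 averaged 308 ± 23.8 in aCM and 302 ± 40.3 in vCM (adjusted p = 0.909), and Phkb 415 ± 16.4 in aCM and 384 ± 49.7 in vCM (adjusted p = 0.586, limma). Phkg1 transcripts share 22.2% of windows of 50 bases with other genes. The annotated Phkg1 locus overlaps Chchd2, Zbed5 and Sumf2, with log2 differences of -0.34, 0.38 and 0.56. None was called without the block, and Chchd2 was lower with it (limma adjusted p = 0.0152). Of 7 skeletal muscle markers 5 were tested. Myh2 (61.0 ± 35.1 in aCM and 4.64 ± 5.22 in vCM) and Tnnt3 (57.6 ± 19.3 in aCM and 12.9 ± 11.0 in vCM) were higher in aCM, and Ckm was lower (not called at equal totals). The list summed to 10499 to 13645 normalized reads in aCM and 13587 to 18161 in vCM, most of it Ckm, and its part in the Phkg1 difference was not tested.

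The chamber difference was compared between the library sets with an interaction term. None of the 36 genes passed it (limma, adjusted p under 0.05), where 5.21% of all tested genes did, and 6 had an unadjusted p under 0.05. These were Pfkm, Pgk1, Pkm, Ldha, Pfkfb3 and Pygb, with the smallest adjusted p at Pfkm (0.0949). All 11 called genes were also called in the same direction within replicates 3 to 5 (26.6% of all genes lower and 26.2% higher there). Within replicates 1 and 2, where 2.04% of all genes were lower and 3.09% higher, 6 of the 11 were called: Tpi1, Pgk1, Eno3, Ldha, Ldhb and Phkg1. Both sets are part of the libraries on which the 11 genes were called, so these counts are no independent check. The shares beside them are of all genes, not of the genes called over all libraries.

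**Figure D5:**
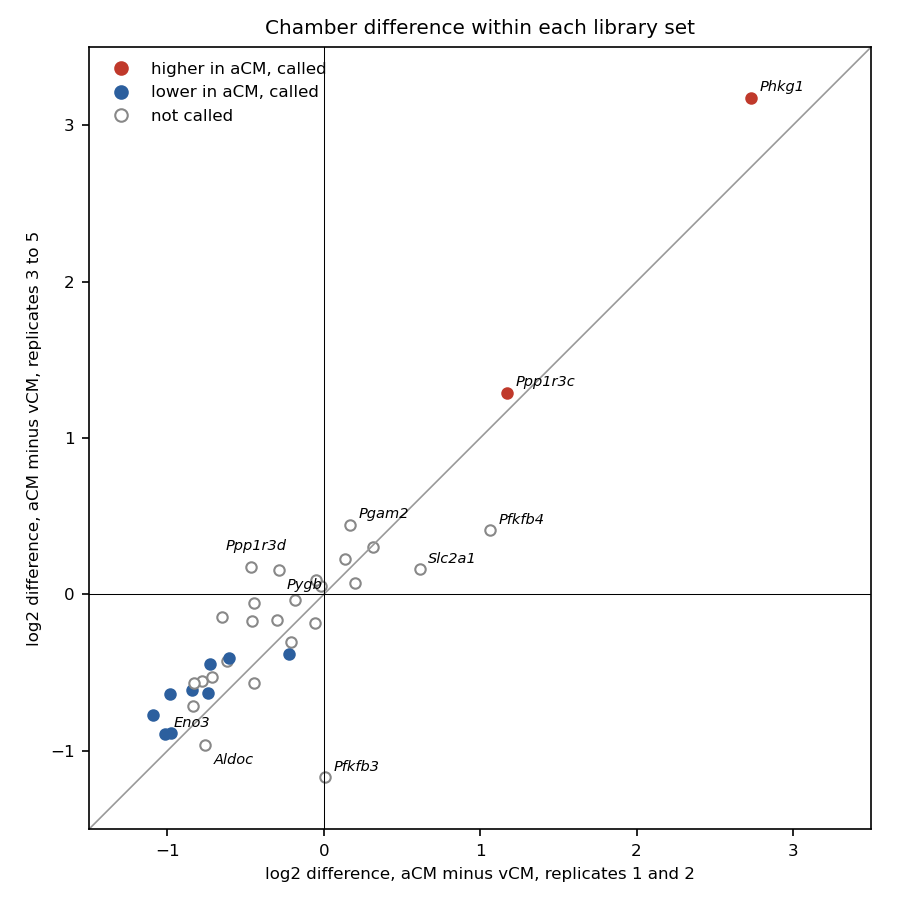
Log2 difference, aCM minus vCM, within replicates 3 to 5 (vertical axis) against replicates 1 and 2 (horizontal axis) for the 36 genes, with the line of equality. Filled points are the 9 genes called lower (blue) and 2 called higher (red) over all libraries. Phkg1 stands at 2.73 on the horizontal and 3.18 on the vertical axis, and Pfkfb3, at 0.01 and -1.17, lies farthest below the line.

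Around the 36 genes, 78 tested genes of 6 further lists held 7 lower and 9 higher in aCM. These are 8.97% and 11.5% of the 78, near the 6.56% and 8.12% of all tested genes. The median log2 difference was -0.23 over the 78 and -0.01 over all tested genes. With the block 24 of the 78 were lower and 11 higher, where 16% of all tested genes were lower and 16.3% higher. The lower genes with the block are thus a larger share of the 78 than of all tested genes. Equal totals gave 2 lower and 7 higher, where 4.32% of all genes were lower and 8.17% higher. The counts per list below rest on 7 to 19 tested genes each. Among the genes not called at equal totals were Bsg, Pgm1, Ogt, Prkag1, Mef2c and Arrdc4. Of 19 tested genes in the control of GLUT4 by insulin and AMPK, 1 was lower and 4 higher. Sort1, sortilin, a sorting receptor of GLUT4 vesicles, had 1949, 1357, 1683, 1706 and 1832 normalized reads in aCM and 554, 548, 514, 553 and 465 in vCM. The groups lay far apart, and Sort1 was 3.24 times as high in aCM (limma adjusted p = 5.48e-06). Tbc1d1, a Rab GTPase-activating protein that holds GLUT4 back, was 3.75 times as high at 1643 ± 158 in aCM and 438 ± 123 in vCM (adjusted p = 4.02e-05). Prkag2, a regulatory subunit of AMPK, was 2.21 times as high at 2052 ± 470.1 in aCM and 928 ± 128 in vCM (adjusted p = 0.00151, limma).

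Of 7 genes of lactate and pyruvate transport, 2 were lower and 1 higher. Mpc2, a subunit of the mitochondrial pyruvate carrier, had 337, 423, 493, 386 and 332 normalized reads in aCM and 969, 929, 995, 1109 and 1010.05 in vCM. The groups did not overlap, and aCM stood at 0.393 of the vCM level (adjusted p = 4.71e-05, limma). Basigin, Bsg, the chaperone of monocarboxylate transporters, stood at 0.745 of the vCM level (adjusted p = 0.0316, limma). Emb, embigin, another such chaperone, averaged 19.1 ± 2.56 in aCM and 6.18 ± 2.29 in vCM (adjusted p = 0.00828, limma). In vCM replicates 1 and 2 Emb was at 6.92 and 2.44, below the 10.4 and 7.31 that 3 reads are worth there.

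Of 15 other tested glycogen genes, 2 were lower and 1 higher. Pgm1, phosphoglucomutase, was lower at 0.678 of the vCM level (limma adjusted p = 0.0364). Gaa, the lysosomal glucosidase of glycogen, was higher, at 554 ± 125 in aCM and 291 ± 82.7 in vCM (adjusted p = 0.0119). Of 15 tested genes on side branches of glycolysis, Uap1, which makes UDP-N-acetylglucosamine, was 2.3 times as high in aCM (adjusted p = 0.0056, limma). Ogt, which attaches that sugar to proteins, stood at 0.705 of the vCM level (adjusted p = 0.0145).

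Of 14 glucose- and hypoxia-responsive regulators, 1 was lower and 2 higher. Mlxipl, which encodes the glucose-responsive factor ChREBP, had 16.6, 5.76, 7.38, 7.67 and 8.37 normalized reads in aCM and 55.4, 31.7, 58.9, 46.8 and 53.1 in vCM. It stood at 0.186 of the vCM level without overlap (limma adjusted p = 0.000355). Mef2c, a muscle transcription factor, averaged 1122 ± 89.2 in aCM and 863 ± 94.9 in vCM (adjusted p = 0.0369), and Arrdc4, an arrestin-domain protein, 167 ± 40.8 in aCM and 106 ± 11.9 in vCM (adjusted p = 0.0399, limma). None of 8 tested genes in the list of other glucose transporters, hexokinases and glycolysis genes passed the test. With the block 1 of them, Bpgm, was lower (limma adjusted p = 0.0437).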

How the data were processed

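RNA was extracted with Trizol, cleaned on columns and made into libraries with the randomly primed ScriptSeq v2 kit, per the labels' protocols. Trimmomatic, HISAT2 and featureCounts on GRCm38 (mm10) come from the submitters' processing notes, whereas versions, annotation and strand setting were not given in the sources used here. Each file gives 1 signal value per gene symbol: per the file headers, the authors normalized counts of reads by the library's DESeq2 size factor before they were deposited. Whole reads were recovered for 100% of values within a tolerance of 0.01, which gave the depths. Depth sets the precision: 3 reads, the most a value of 0 allows, are worth 1.70 to 10.4 normalized reads depending on the library, which covers counting error only.

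The test, two-sided over 12422 genes averaging 10 or more normalized reads, was limma 3.58.1 in R 4.3.3 (trend, robust) on log2(normalized reads + 1). P-values were adjusted by Benjamini-Hochberg and called at 0.05. Fold changes on that scale are understated for low genes, and ratios of means carry no pseudocount. The 14 isozyme ratios had exact permutation tests over libraries. Alternatives were edgeR 4.0.16 and DESeq2 1.42.0 on the recovered reads, other scalings, minimum means and pseudocounts, each library left out, each library set alone, the set as a term and the replicate number as a block. Libraries with the same number deviated together from their group means (correlations 0.556 to 0.637), so the numbers, which come from the labels, were taken as pairing. For aCM replicates 3, 4 and 5, the same-number correlations were 0.623, 0.556 and 0.631. Their highest correlations with another number were much the same, at 0.614, 0.633 and 0.636. For replicates 1 and 2 these were lower, at 0.345 and 0.336. The correlations thus single out the same number in replicates 1 and 2, but do not show pairing by number within replicates 3 to 5. Replicates differed beyond sampling noise, but the labels name no separate animals, so a p-value here reflects only how these libraries vary, which may be technical. Lengths per kb are exons of protein-coding transcripts in GENCODE M21, which matched all 36 genes. Members and lists were chosen with earlier results of these data known. Named genes were all 36, with values per library for each called gene and each gene of a called ratio, and up to 3 called genes per other list by smallest p. Phkg2, which was not called, was named beside Phkg1. Genes of the lists that the tables do not hold were not analysed here, and 1 called gene of another list is not reported here.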

Additional observations from a re-analysis of the deposited data

Results flagged for a closer look

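Of 100 groups of 5 values examined (36 genes and 14 ratios in each chamber), 8 held a library whose gap to its nearest neighbour exceeded 0.71 of the group's range. Chance alone gives about 1 in 20 groups. The gap was 0.729 for Pfkfb2 in aCM, where replicate 2 was highest, and 0.842 for Ppp1r3a in aCM, where replicate 1 was highest at 1044 normalized reads. In vCM replicate 1, 3 values stood apart. Slc2a1 was highest there (gap 0.787), Gapdh lowest (0.76) and the ratio Aldoc/Aldoa highest (0.753). Among the other vCM libraries, Hk2 was lowest in replicate 2 (0.719), Pgam1/Pgam2 lowest in replicate 3 (0.781) and Pfkfb1/Pfkfb2 lowest in replicate 5 (0.784). The library labelled vCM replicate 1 is also the shallowest, with 1790402 reads.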

How the results depend on the processing

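Over 36 genes, the count lower in aCM (9) was 7 to 10 and the count higher (2) was 2 to 3 when single libraries or both replicates 1 were left out. With the replicate block 17 were lower and 4 higher, where 16% and 16.3% of all tested genes were. The library set as a term gave 18 and 4 (15.8% and 16% of all tested genes). Replicates 3 to 5 alone gave 19 and 6 (52.8% and 16.7% of the 36), where 26.6% and 26.2% of all tested genes were called. Replicates 1 and 2 alone gave 8 and 1 (22.2% and 2.78% of the 36), against 2.04% and 3.09%. Equal totals gave 4 lower and 2 higher (4.32% and 8.17% of all tested genes). edgeR gave 9 and 2, DESeq2 10 and 3. Called in all 10 fits without a single library were 9 of the 11 genes, all but Tpi1 and Ugp2. Equal totals lost Tpi1, Pgk1, Ldhb, Pygm and Ugp2. The isozyme ratios called were 6 to 7 without a single library, 7 with labels permuted within library sets, and 0 of 14 under the replicate block, where sign flips of 5 pairs cannot give a p under 0.0625. In the 6 further lists, calls lower in aCM came to 24 with the replicate block, where 16% of all tested genes were lower. These were 1 of the other transporters and glycolysis genes, 5 other glycogen genes, 6 in GLUT4 control, 3 in transport, 4 on side branches and 5 regulators. Calls lower came to 2 at equal totals (0 other glycogen genes, 0 in GLUT4 control, 1 in transport, 0 on side branches). At equal totals 0 regulators were higher. Signs turned at genes that limma did not call over all libraries and at the uncalled ratio Pfkp/Pfkm. Pfkfb3, which DESeq2 called lower, was 0.00727 in replicates 1 and 2. Pygb was 0.0475 at equal totals, 0.0373 at equal totals without Rn45s and Lars2, 0.16 in replicates 3 to 5, 0.0590 without both replicates 1 and -0.14 to 0.16 with libraries left out. Gbe1 was -0.0169 and Phka1 -0.0465 in replicates 1 and 2, and Ppp1r3d was 0.18 in replicates 3 to 5 and 0.0665 without both replicates 1. With single libraries left out Gbe1 ranged over -0.0963 to 0.18, Ppp1r3d over -0.20 to 0.0702, Phka1 over -0.0170 to 0.0931 and Pfkp/Pfkm over -0.47 to 0.12. The cause of these changes was not tested. The fit without both replicates 1 was chosen after seeing the data. Among the 36 genes depth limits Pfkfb1, Pfkfb4 and Phkg1 in vCM most, and in the further lists it also limits Emb in vCM.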
